A study of Mus musculus with 18 samples.

Results

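The genes described here mark the wall of brain blood vessels: 25 endothelial genes and 8 genes of mural cells, the pericytes and smooth muscle cells that wrap the endothelium. They were taken from a list of vascular markers, and each gene was read by 1 probe set, the one with the highest mean over the 18 arrays. Of the 33 genes, 29 had a probe set that carried a single gene symbol. Of these, 28 passed the filter on low values (23 endothelial and 5 mural), among 12822 genes kept of 17097 measured. Ly6a and Itm2a were not in the table of probe set names, Tagln and Abcc9 were only on probe sets of several symbols, and these 4 genes were not analysed here. The pericyte channel gene Kcnj8 had a mean of 5.47 on the log2 scale, below the filter at 5.52, and entered no test. All 28 genes kept had a mean above that filter, and 13 of the 29 had more than 1 probe set.

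The mice were CPEB4 KO, CPEB4 GT/+ and WT, with 2 animals of each genotype, all aged 6 weeks, and cortex and striatum were dissected together. The labels do not say what the GT allele is, and the genotype is given for the whole animal with no cell type named. From each animal 3 RNA samples went onto arrays: ELUTED, the RNA that left poly(U) agarose with 90% formamide and is enriched for long poly(A) tails; WASH, which left it with 25% formamide and is enriched for short tails; and INPUT, the unfractionated total RNA. An ELUTED minus WASH difference thus says in which of the fractions a transcript was richer relative to other genes, and is not a tail length.

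Endothelial cells of the brain form the blood-brain barrier. They seal the gaps between neighbours with tight and adherens junctions, carry nutrients across by dedicated transporters, and read growth factors such as VEGF and the angiopoietins through receptor tyrosine kinases. Pericytes sit on capillaries and depend on PDGF-B signalling through Pdgfrb, whereas smooth muscle cells ring arterioles and contract. The CPEB4 protein binds elements in the 3′ untranslated regions of mRNAs in the cytoplasm and takes part in lengthening or shortening their poly(A) tails.

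The array medians lay between 6.32 and 6.48, and arrays of the same group correlated at 0.966 to 0.994 across the genes kept. Cpeb4 itself stood in INPUT at 6.62 and 6.91 in CPEB4 KO, 7.31 and 7.002 in CPEB4 GT/+ and 8.15 and 7.62 in WT. The order of these levels fits the genotype labels, although no gene passed the test in INPUT. The standard deviation across probe sets was 1.78 to 1.90 on ELUTED arrays, against 1.96 to 2.01 on WASH arrays. The difference between the 3′ and 5′ probe sets of Actb, a measure of RNA integrity, was -0.47 to -0.31 on ELUTED arrays and -0.21 to -0.059 on WASH arrays. The Actb difference separated ELUTED from WASH completely. That of Gapdh did not, at -0.053 to 0.062 on ELUTED arrays and -0.13 to 0.020 on WASH arrays. The part of either difference in the results below was not tested.

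Most of the vascular genes were richer in the short-tail fraction. Of the 28 genes, 19 were lower in ELUTED than in WASH, 3 were higher and 6 did not pass the test, which was limma on the per-animal differences (adjusted over all genes by Benjamini-Hochberg, threshold 0.05). The same test called 48.5% of all genes lower (6217) and 24.9% higher (3196), so most genes moved on these arrays. The median difference was -0.34 over the vascular genes, against -0.18 over all genes. All 6 animals lay below 0 for 17 of the vascular genes, against 47.8% of all genes, and above 0 for 3, against 23.7%.

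Where 0 lies on this scale depends on how the arrays are aligned. With each array centred on its own median the all-gene median became 0.17, and 8 vascular genes were higher and 11 lower (6202 and 3346 of all genes). With arrays aligned on the hybridisation controls it became -0.67, and 0 vascular genes were higher and 25 lower (202 and 9230 of all genes). Centring and the hybridisation controls move all genes by the same amount, so they cannot change a gene's position relative to the all-gene median, below which 19 of the 28 vascular genes lay and above which 9 did. A further quantile normalization, which can change it, gave 17 below and 11 above. Of the 19 genes called lower, 14 stayed below 0 under these alignments and the quantile normalization. The other 5, Pecam1, Kdr, Vwf, Myh11 and Mfsd2a, turned above 0 with centred arrays. Of the 3 called higher, Flt1 stayed above 0, but at 0.04 with the hybridisation controls it was not called (limma adjusted p = 0.779). Ramp2 (-0.05) and Eng (-0.28) turned below 0 with those controls. The call itself held under all 3 settings for 11 of the lower genes and 0 of the higher ones.

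**Figure D1:**
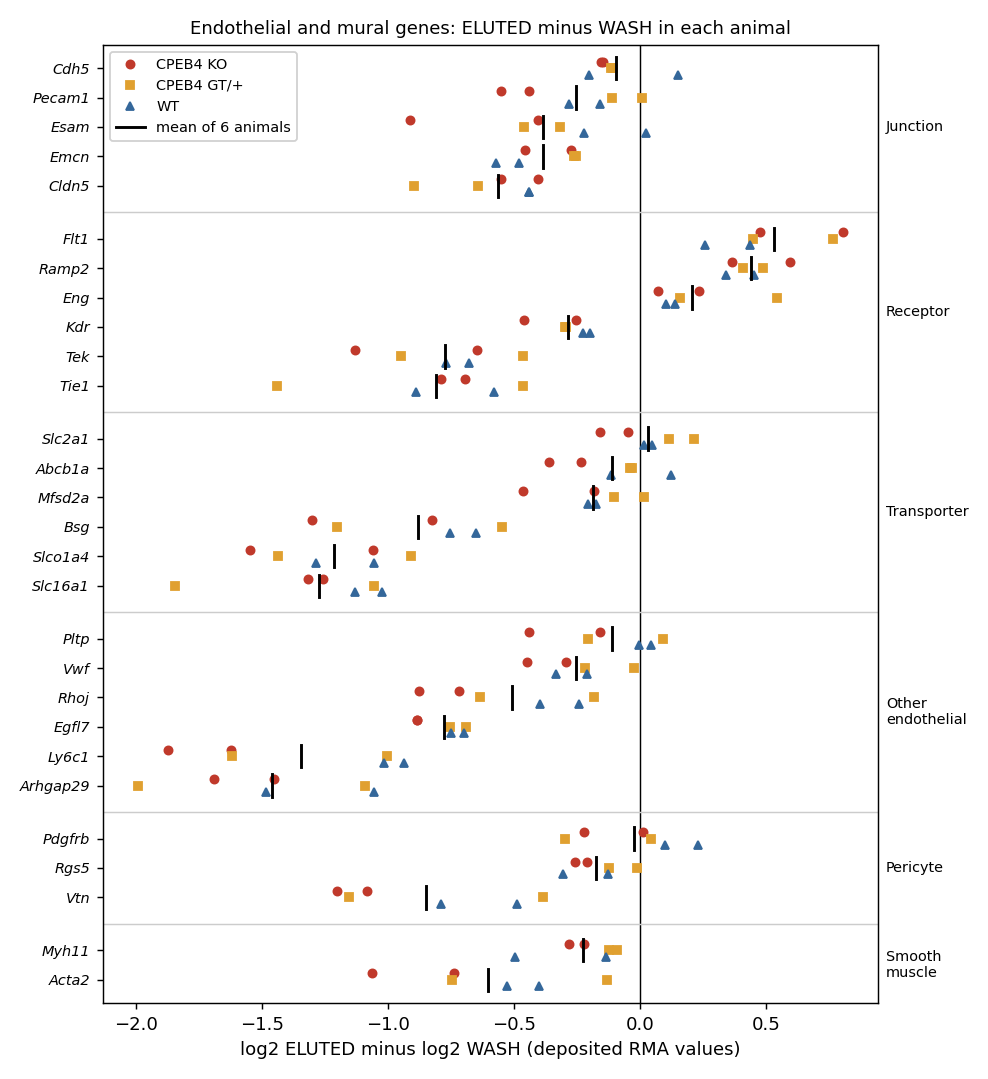
ELUTED minus WASH (log2) of each vascular gene in each of the 6 animals, with genes grouped by role, points coloured by genotype (CPEB4 KO, CPEB4 GT/+, WT) and a black bar at the mean. Arhgap29 at -1.46, Ly6c1 at -1.35, Slc16a1 at -1.27 and Slco1a4 at -1.22 lie farthest below 0, and Flt1 at 0.53 and Ramp2 at 0.44 farthest above. When arrays are aligned on the hybridisation controls, Flt1 falls to 0.04 and Ramp2 to -0.05.

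The receptors split into opposite directions on the deposited scale. Of 6 receptor genes, 3 were higher in ELUTED (Flt1, Ramp2 and Eng) and 3 lower (Tek, Tie1 and Kdr), with a median of -0.04. Beside this count and those of the role groups below, 24.9% of all genes were higher and 48.5% lower. With arrays aligned on the hybridisation controls, 0 receptor genes were called higher and 3 lower. Flt1, a VEGF receptor that binds its ligand tightly and signals weakly, stood on ELUTED arrays at 9.51 and 9.51 in CPEB4 KO, 9.49 and 9.77 in CPEB4 GT/+ and 9.41 and 9.42 in WT. Its WASH levels were 9.03 and 8.70 in CPEB4 KO, 9.04 and 8.999 in CPEB4 GT/+ and 8.98 and 9.16 in WT. Every ELUTED array was above every WASH array, and the difference was 0.53 (SE 0.084, limma adjusted p = 0.000698), or 1.44-fold. Kdr, the VEGF receptor that carries most of the endothelial growth signal, differed by -0.46 and -0.25 in CPEB4 KO, -0.29 and -0.30 in CPEB4 GT/+ and -0.20 and -0.23 in WT. All 6 animals were below 0 on the deposited scale, at a mean of -0.29 (SE 0.071, limma adjusted p = 0.00641), but the value became 0.07 with centred arrays. Flt1 lay above the median of all genes. Kdr lay below it on the deposited scale, but after quantile normalization it was at -0.0583 (not called), just above the all-gene median of -0.0610.

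Tek and Tie1, the angiopoietin receptor and its partner, were both richer in the short-tail fraction. Tek stood on ELUTED arrays at 6.91 and 6.52 in CPEB4 KO, 7.22 and 6.78 in CPEB4 GT/+ and 6.91 and 6.79 in WT. In WASH its levels were 7.56 and 7.65 in CPEB4 KO, 7.69 and 7.72 in CPEB4 GT/+ and 7.59 and 7.56 in WT. The fractions did not overlap, and WASH was 1.71-fold higher (-0.77, SE 0.097, limma adjusted p = 0.000227). For Tie1 the per-animal difference was -0.69 and -0.79 in CPEB4 KO, -0.47 and -1.44 in CPEB4 GT/+ and -0.89 and -0.58 in WT. The second CPEB4 GT/+ animal lay lowest, and the mean was -0.81 (SE 0.12, limma adjusted p = 0.000585).

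Ramp2, which partners the calcitonin receptor-like receptor to form the adrenomedullin receptor of endothelium, stood on ELUTED arrays at 12.87 and 12.92 in CPEB4 KO, 12.78 and 12.67 in CPEB4 GT/+ and 12.84 and 12.76 in WT. The WASH arrays gave 12.51 and 12.33 in CPEB4 KO, 12.29 and 12.27 in CPEB4 GT/+ and 12.39 and 12.42 in WT. The fractions did not overlap, and the difference was 0.44 (SE 0.073, limma adjusted p = 0.000879), or 1.36-fold, on the deposited scale. These values are close to the top of the scale, whose highest value was 13.66. Eng, the endoglin co-receptor for TGF-beta ligands, differed by 0.23 and 0.07 in CPEB4 KO, 0.16 and 0.54 in CPEB4 GT/+ and 0.10 and 0.14 in WT. Its mean of 0.21 (SE 0.080, limma adjusted p = 0.0436) stayed called in 1 of the 6 fits that each left out an animal, the one without the first CPEB4 GT/+ animal, and its adjusted p reached 0.155.

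**Figure D2:**
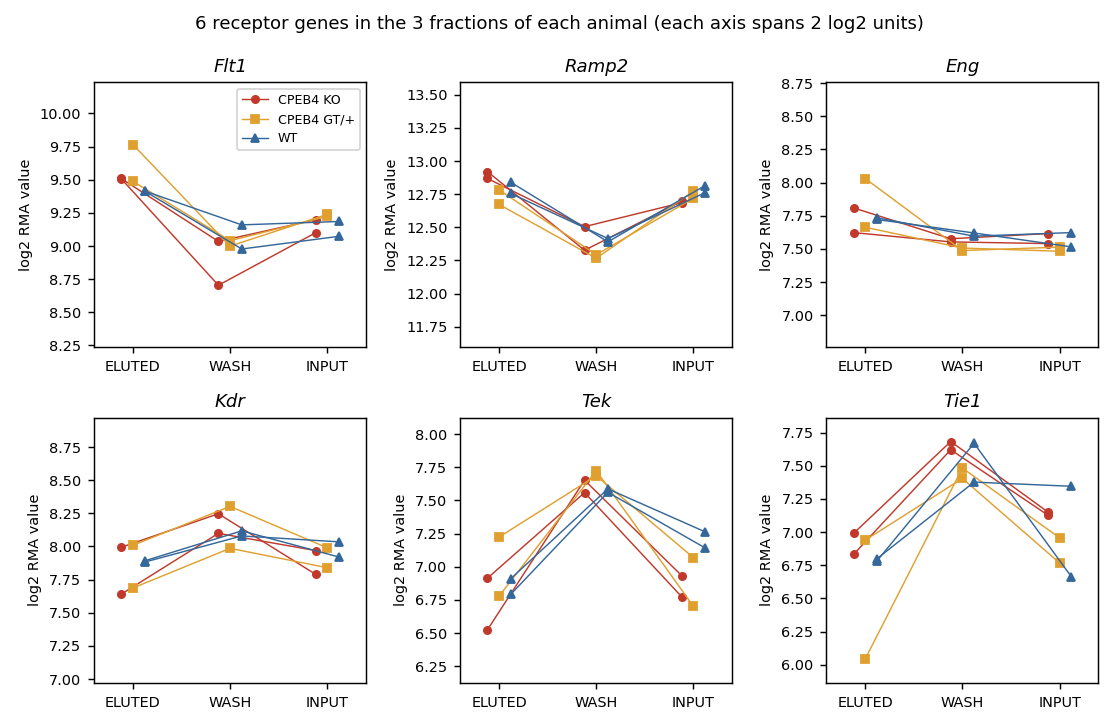
Log2 array level of 6 receptor genes (Flt1, Ramp2, Eng, Kdr, Tek, Tie1) in ELUTED, WASH and INPUT, with 1 line per animal coloured by genotype and every vertical axis spanning the same number of log2 units. Flt1 is highest in ELUTED and Tek and Tie1 are highest in WASH in all 6 animals, and Ramp2 is lowest in WASH.

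The median of the 5 junction and adhesion genes was -0.38. In ELUTED 4 of them were lower and 0 higher, and Cdh5 did not pass the test. Cldn5, the main claudin of the barrier's tight junctions, stood on ELUTED arrays at 7.06 and 6.87 in CPEB4 KO, 6.86 and 6.59 in CPEB4 GT/+ and 6.99 and 6.96 in WT. On WASH arrays it stood at 7.47 and 7.42 in CPEB4 KO, 7.50 and 7.49 in CPEB4 GT/+ and 7.43 and 7.40 in WT. The WASH arrays lay close together and all above the ELUTED arrays, with a difference of -0.56 (SE 0.074, limma adjusted p = 0.000275). Cdh5, the cadherin of endothelial adherens junctions, differed by -0.15 and -0.15 in CPEB4 KO, -0.11 and -0.11 in CPEB4 GT/+ and 0.15 and -0.20 in WT, at a mean of -0.10 (limma adjusted p = 0.279). Cldn5 lay below the all-gene median and Cdh5 above it. Without the first WT animal Cdh5 lay close to that median, at -0.155 against -0.177.

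The 3 other junction and adhesion genes had smaller differences than Cldn5. Emcn, a sialomucin of capillary and venous endothelium, differed by -0.27 and -0.46 in CPEB4 KO, -0.26 and -0.26 in CPEB4 GT/+ and -0.48 and -0.57 in WT. All 6 animals were below 0, at a mean of -0.38 (SE 0.071, limma adjusted p = 0.00152). With centred arrays the value was -0.03 and was not called (limma adjusted p = 0.736). Esam, an adhesion molecule at tight junctions, was at -0.38 (SE 0.090, limma adjusted p = 0.00503) but varied from -0.92 in the second CPEB4 KO animal to 0.02 in the second WT animal. It was at -0.03 with centred arrays (limma adjusted p = 0.762) and at -0.04 against INPUT (limma adjusted p = 0.656), with no call in either. Pecam1, the CD31 adhesion molecule, differed by -0.55 and -0.44 in CPEB4 KO, -0.11 and 0.01 in CPEB4 GT/+ and -0.28 and -0.16 in WT, so that the CPEB4 KO animals lay lowest. Its mean of -0.26 (limma adjusted p = 0.011) lost its call without the first CPEB4 KO animal (-0.24, limma adjusted p = 0.0543) or the first WT animal (-0.24, limma adjusted p = 0.0828).

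The transporters ranged from large differences to none that passed the test. The median of the 6 transporter genes was -0.53, and 4 were lower and 0 higher in ELUTED. Slco1a4, which moves organic anions and thyroid hormone across the barrier, stood on ELUTED arrays at 7.15 and 6.80 in CPEB4 KO, 7.41 and 6.87 in CPEB4 GT/+ and 6.91 and 7.13 in WT. Its WASH levels were 8.21 and 8.35 in CPEB4 KO, 8.31 and 8.31 in CPEB4 GT/+ and 8.20 and 8.19 in WT. WASH was 2.32-fold higher with no overlap (-1.22, SE 0.10, limma adjusted p = 6.94e-05).

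Slc16a1, the monocarboxylate transporter MCT1, and Bsg, the basigin chaperone that brings it to the membrane, went the same way. Slc16a1 stood on ELUTED arrays at 7.42 and 7.69 in CPEB4 KO, 8.10 and 7.14 in CPEB4 GT/+ and 7.78 and 8.03 in WT. In WASH its levels were 8.74 and 8.95 in CPEB4 KO, 9.16 and 8.99 in CPEB4 GT/+ and 8.91 and 9.05 in WT. WASH was 2.42-fold higher with no overlap (-1.27, SE 0.11, limma adjusted p = 6.88e-05). Bsg stood at 8.99 to 9.66 on ELUTED arrays and at 10.16 to 10.31 on WASH arrays, with a difference of -0.88 (SE 0.11, limma adjusted p = 0.000195). Other brain cells express Bsg too, as they do Slc16a1, Slc2a1, Arhgap29 and Pltp. Values of these genes in this tissue are therefore not of vessels alone.

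Slc2a1, the glucose transporter GLUT1, did not pass the test. Its difference was -0.05 and -0.16 in CPEB4 KO, 0.11 and 0.21 in CPEB4 GT/+ and 0.05 and 0.02 in WT, at a mean of 0.03 (limma adjusted p = 0.705). Abcb1a, the P-glycoprotein efflux pump, was at -0.11 (limma adjusted p = 0.197), with the second WT animal above 0. Mfsd2a, the carrier of lysophospholipids with docosahexaenoic acid, differed by -0.18 and -0.47 in CPEB4 KO, -0.10 and 0.02 in CPEB4 GT/+ and -0.17 and -0.21 in WT. The second CPEB4 GT/+ animal was not below 0, and the mean was -0.19 (limma adjusted p = 0.0496) on the deposited scale and 0.17 with centred arrays, and it stayed called in 1 of the 6 fits that each left out an animal (adjusted p up to 0.212), the one without the second CPEB4 GT/+ animal.

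The median of the 6 remaining endothelial genes kept was -0.64, and 5 were lower and 0 higher in ELUTED. Arhgap29, a GTPase-activating protein, stood on ELUTED arrays at 6.45 and 6.40 in CPEB4 KO, 6.71 and 6.14 in CPEB4 GT/+ and 6.28 and 6.61 in WT. The WASH arrays gave 7.90 and 8.09 in CPEB4 KO, 7.80 and 8.13 in CPEB4 GT/+ and 7.77 and 7.67 in WT. WASH was 2.75-fold higher with no overlap (-1.46, SE 0.12, limma adjusted p = 7.15e-05), the lowest of the 28 differences. Ly6c1, a surface antigen of mouse capillary endothelium, stood on ELUTED arrays at 7.66 and 7.51 in CPEB4 KO, 8.09 and 7.58 in CPEB4 GT/+ and 7.86 and 8.28 in WT. On WASH arrays it stood at 9.29 and 9.39 in CPEB4 KO, 9.09 and 9.20 in CPEB4 GT/+ and 8.88 and 9.22 in WT. The fractions did not overlap, and WASH was 2.54-fold higher (-1.35, SE 0.096, limma adjusted p = 5.15e-05).

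Egfl7, a secreted protein of vessel formation, varied little between animals. Its difference was -0.89 and -0.89 in CPEB4 KO, -0.76 and -0.69 in CPEB4 GT/+ and -0.75 and -0.70 in WT, at a mean of -0.78 (SE 0.068, limma adjusted p = 7.44e-05). Rhoj differed by -0.72 and -0.88 in CPEB4 KO, -0.18 and -0.64 in CPEB4 GT/+ and -0.40 and -0.24 in WT. The CPEB4 KO animals lay lowest, and the mean was -0.51 (SE 0.085, limma adjusted p = 0.00089). Rhoj lost its call with centred arrays (limma adjusted p = 0.0854). Vwf, the adhesive glycoprotein stored in Weibel-Palade bodies, differed by -0.29 and -0.45 in CPEB4 KO, -0.22 and -0.02 in CPEB4 GT/+ and -0.34 and -0.21 in WT. All 6 animals were below 0, and the mean was -0.26 (SE 0.073, limma adjusted p = 0.0132) on the deposited scale and 0.10 with centred arrays. Its call ended without the second CPEB4 KO, the first WT or the second WT animal (limma adjusted p up to 0.0898). Pltp, a phospholipid transfer protein, did not pass the test (-0.11, limma adjusted p = 0.224).

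Of the 5 mural genes kept, 3 were lower in ELUTED, 0 were higher and 2 pericyte genes did not pass the test, with a median of -0.23. Vtn, the matrix protein vitronectin that brain pericytes make, stood on ELUTED arrays at 8.67 and 8.69 in CPEB4 KO, 9.29 and 8.56 in CPEB4 GT/+ and 9.27 and 9.05 in WT. Its WASH levels were 9.75 and 9.90 in CPEB4 KO, 9.68 and 9.71 in CPEB4 GT/+ and 9.76 and 9.84 in WT. The fractions did not overlap, and WASH was 1.80-fold higher (-0.85, SE 0.11, limma adjusted p = 0.000239). Rgs5, a regulator of G-protein signalling and a pericyte marker, was below 0 in all 6 animals, from -0.31 to -0.01, but did not pass the test at -0.17 (limma adjusted p = 0.054). It lay near the threshold and passed with no filter on low values (limma adjusted p = 0.0418) or the lowest 50% of genes left out (0.0488). It also passed with an intensity trend in eBayes (0.0347) and over the mean of its probe sets (0.0325). With centred arrays Rgs5 turned above 0 and was not called. Without the first CPEB4 GT/+ animal it was at -0.19. Pdgfrb, the receptor that keeps pericytes on the vessel, ran from -0.30 to 0.23 at a mean of -0.02 (limma adjusted p = 0.805).

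The 2 smooth muscle genes kept were both lower in ELUTED. Acta2, smooth muscle actin, differed by -0.74 and -1.06 in CPEB4 KO, -0.13 and -0.75 in CPEB4 GT/+ and -0.53 and -0.40 in WT. Every animal was below 0, at a mean of -0.60 (SE 0.098, limma adjusted p = 0.000814). Over the mean of its probe sets, the second of them below the filter, it was -0.04 and not called (limma adjusted p = 0.582). ELUTED minus INPUT was -0.22, also not called (limma adjusted p = 0.143). Myh11, smooth muscle myosin heavy chain, differed by -0.22 and -0.28 in CPEB4 KO, -0.12 and -0.09 in CPEB4 GT/+ and -0.14 and -0.50 in WT. Its mean was -0.23 (SE 0.077, limma adjusted p = 0.0276) on the deposited scale, 0.13 with centred arrays and 0.09 over the mean of its probe sets. Its call ended without either CPEB4 KO animal or without the second WT animal (limma adjusted p up to 0.193).

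The gap between endothelial and mural genes was small and did not have the same sign in every animal. The endothelial median was -0.38 and the mural median -0.23, a difference of -0.16. Within single animals the difference of the medians was -0.15 and -0.18 in CPEB4 KO, -0.13 and -0.18 in CPEB4 GT/+ and -0.03 and 0.18 in WT. The endothelial median was the lower one in 5 of 6 animals and the higher one in the second WT animal. Over the mean of all probe sets of each gene the difference was -0.34 for the same 28 genes, a setting added after the data were seen, and -0.30 with Kcnj8, which then passed the filter. With INPUT in place of ELUTED it was 0.04.

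Different probe sets of the same gene did not always give the same answer. Of 13 genes with several probe sets, 7 had probe sets that differed in the sign of the ELUTED minus WASH difference. The second probe set of Ramp2 was at 0.73, while another, of lower signal (mean 7.95), was at -0.24. The other probe sets of Flt1 were at 0.29 and -0.06. For Slc2a1 a second probe set was at -0.28, for Myh11 at 0.40 and for Acta2 at 0.52, the last with a mean of 5.12, below the filter. Second probe sets of Arhgap29 (0.19, mean 4.87) and Slc16a1 (0.02, mean 4.85) had the other sign too, both below the filter. The other probe sets of Egfl7 (-0.61 and -0.72), Eng (0.37) and Vtn (-1.12) had the sign of the one used.

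INPUT offers a second reference that places each fraction on its own. WASH was higher than INPUT for 22 of the 28 vascular genes, lower for 2 and not called for 4, against 45.1% of all genes higher and 19.5% lower. The median was 0.36 over the vascular genes and 0.11 over all genes. The 2 lower genes were Ramp2 (-0.38, SE 0.051, limma adjusted p = 0.000387) and Flt1 (-0.18, SE 0.052, limma adjusted p = 0.0145), the same genes that led in ELUTED. The highest values were Slco1a4 at 0.78, Rhoj at 0.75, Ly6c1 at 0.70 and Slc16a1 at 0.69, each with a limma adjusted p of 6.83e-05 or less.

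ELUTED set against INPUT gave fewer calls, at counts near the shares over all genes. Of the 28 genes, 5 were higher (Flt1 0.35, Rgs5 0.35, Abcb1a 0.26, Rhoj 0.24, Eng 0.22), 7 lower and 16 not called. Of all genes 14.6% were higher and 29.5% lower. The median was 0.05 over the vascular genes and -0.04 over all genes. The 7 lower genes were Arhgap29 (-0.83), Vtn (-0.75), Bsg (-0.71), Ly6c1 (-0.64), Slc16a1 (-0.58), Egfl7 (-0.53) and Slco1a4 (-0.44). Tek (-0.12, limma adjusted p = 0.26) and Cldn5 (0.03, limma adjusted p = 0.723) were lower in ELUTED than in WASH but did not pass the test against INPUT. Rhoj, Rgs5 and Abcb1a were higher than INPUT in both fractions. The value of Vtn rests partly on 1 animal: ELUTED minus INPUT was -2.21 and -0.99 in CPEB4 KO, 0.17 and -0.76 in CPEB4 GT/+ and -0.21 and -0.48 in WT.

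**Figure D3:**
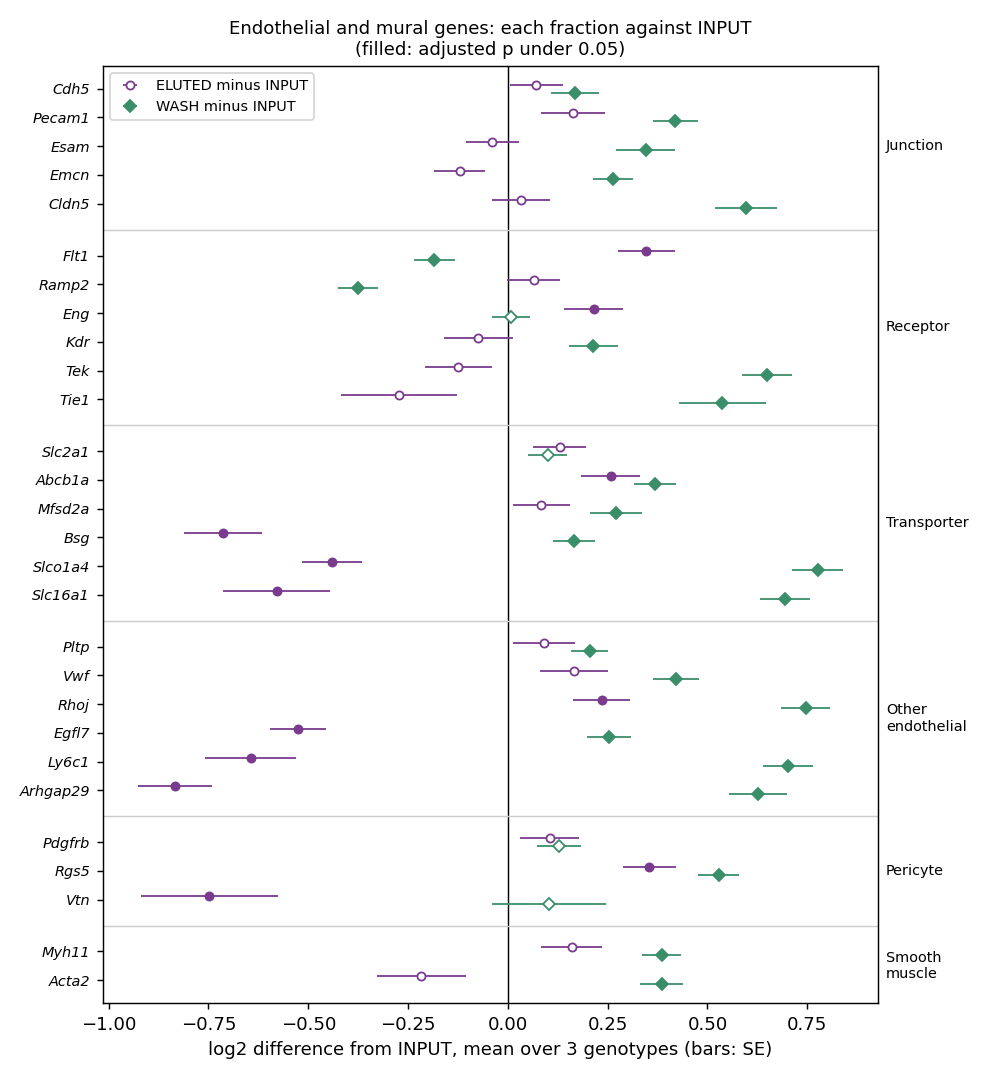
ELUTED minus INPUT (circles) and WASH minus INPUT (diamonds) for each vascular gene, in log2 with standard errors as bars, filled where the limma adjusted p is under 0.05. WASH is called above INPUT for 22 genes and below it for Ramp2 and Flt1, while ELUTED is called above INPUT for 5 genes and below it for 7.

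In INPUT no vascular gene passed the test between genotypes, and no gene on the arrays did. The share called was 0.0% in each of the 3 comparisons by limma with adjustment over all genes. The smallest p that an exact test can give with 2 animals on each side is 0.333. At an unadjusted p under 0.05, 9 vascular genes were higher and 1 lower in CPEB4 KO than in WT, against 7.28% of all genes higher (934) and 3.67% lower (470). Of the 28 genes, 24 lay above 0, against 57.2% of all genes, with a median of 0.16 against 0.03. Both CPEB4 KO animals lay above both WT animals for 16 of the vascular genes, against 24.7% of all genes, and below them for 2, against 18.4%. In a tissue homogenate, more cells of a type and more RNA per cell cannot be told apart.

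Above the all-gene median lay 21 of the 28 genes on the deposited scale and 20 after quantile normalization. The number above 0 was 19 of 28 without the first WT animal and was 25 without the second. It was 20 without the first CPEB4 KO animal and 25 without the second. Over the mean of WASH and ELUTED in place of INPUT it was 18, at a median of 0.02.

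By role, the 6 transporter genes were all above 0 in CPEB4 KO (median 0.21) and so were the 6 remaining endothelial genes (median 0.45). The 5 junction genes had a median of 0.15 and the 6 receptor genes one of -0.04, with 3 above 0. The 5 mural genes were all above 0 on the probe sets used, at a median of 0.45 against 0.15 for the endothelial genes. With centred arrays Pdgfrb and Pltp lay just below 0. That gap of -0.30 between endothelial and mural medians was -0.11 over the mean of all probe sets of the same 28 genes, and 0.01 when Kcnj8, which passed the filter in that setting, was counted as a further mural gene. Of the markers outside the 33 genes, 7 of 13 mural ones were above 0 (median 0.0016) and 18 of 26 endothelial ones (median 0.07).

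Single endothelial genes with small unadjusted p in CPEB4 KO against WT did not pass the adjusted test. Rhoj stood in INPUT at 7.72 and 7.59 in CPEB4 KO, 7.29 and 7.20 in CPEB4 GT/+ and 6.94 and 7.11 in WT. Its difference between CPEB4 KO and WT was 0.63 (SE 0.10, limma adjusted p = 0.253). The CPEB4 GT/+ animals lay between the other genotypes. Without the second CPEB4 KO animal the difference was 0.69 and passed the test (limma adjusted p = 0.0295). Arhgap29 stood at 7.56 and 7.42 in CPEB4 KO, 7.49 and 7.36 in CPEB4 GT/+ and 6.96 and 6.80 in WT. Here CPEB4 KO and CPEB4 GT/+ overlapped and both lay above WT, by 0.61 (SE 0.11, limma adjusted p = 0.253) and by 0.55 (SE 0.11, limma adjusted p = 1.00). Arhgap29 also passed without the second CPEB4 KO animal, at 0.68 (limma adjusted p = 0.0368). Ly6c1 stood at 8.84 and 8.79 in CPEB4 KO, 8.23 and 8.55 in CPEB4 GT/+ and 8.22 and 8.22 in WT. CPEB4 KO lay above both other genotypes, and its difference from WT was 0.60 (SE 0.12, limma adjusted p = 0.306).

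The 1 gene with a lower unadjusted value in CPEB4 KO was Tek, at 6.77 and 6.93 in CPEB4 KO, 7.07 and 6.70 in CPEB4 GT/+ and 7.26 and 7.14 in WT (-0.35, limma adjusted p = 0.443). Cldn5 showed a wide spread within CPEB4 KO and CPEB4 GT/+, at 7.29 and 6.83 in CPEB4 KO, 7.01 and 6.53 in CPEB4 GT/+ and 6.75 and 6.72 in WT. Flt1 overlapped between CPEB4 KO and WT, at 9.20 and 9.10 in CPEB4 KO, 9.22 and 9.24 in CPEB4 GT/+ and 9.07 and 9.19 in WT.

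**Figure D4:**
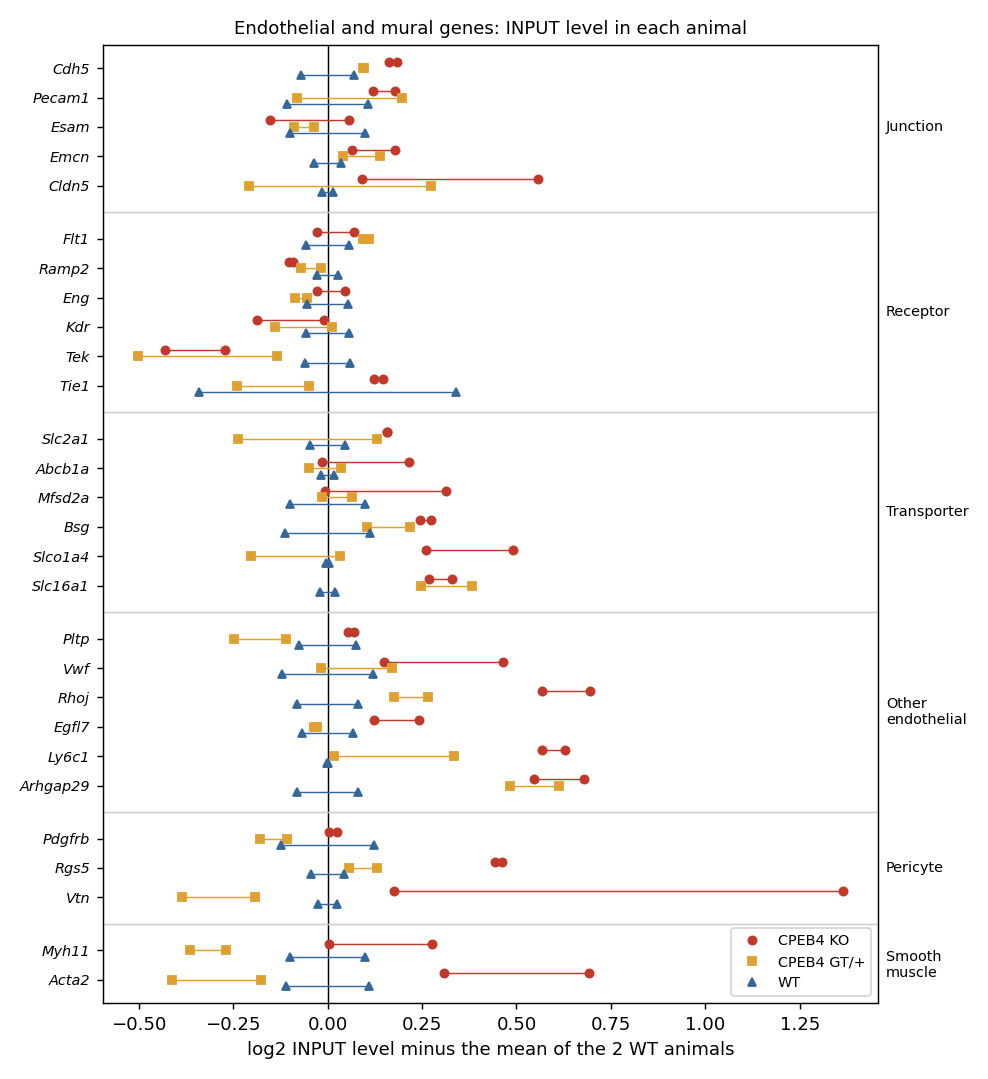
INPUT level of each vascular gene in each animal minus the mean of the 2 WT animals, in log2, with genes grouped by role and points coloured by genotype (CPEB4 KO, CPEB4 GT/+, WT). In the first CPEB4 KO animal Vtn stands at 10.87, against 9.69 in the other CPEB4 KO animal and 9.12 to 9.54 in the other genotypes; no gene passes the adjusted test.

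For 4 of the 5 mural genes, all but Rgs5, the CPEB4 GT/+ mean lay below the WT mean and the CPEB4 KO mean above it on the probe sets used. Acta2 stood in INPUT at 8.41 and 8.80 in CPEB4 KO, 7.69 and 7.93 in CPEB4 GT/+ and 7.99 and 8.22 in WT. The 3 genotypes did not overlap: CPEB4 KO was highest and CPEB4 GT/+ lowest. The difference was 0.79 between CPEB4 KO and CPEB4 GT/+ (SE 0.16, limma adjusted p = 0.428) and 0.50 between CPEB4 KO and WT (SE 0.16, limma adjusted p = 0.400). Myh11 stood at 6.97 and 7.24 in CPEB4 KO, 6.60 and 6.69 in CPEB4 GT/+ and 6.86 and 7.06 in WT. Like Acta2 it was lowest in CPEB4 GT/+, but its CPEB4 KO and WT animals overlapped. A second Myh11 probe set, also above the filter, had CPEB4 KO lowest, at -0.17 against WT and -0.06 against CPEB4 GT/+. The second Acta2 probe set, below the filter, put CPEB4 KO at 0.02 against WT and 0.10 against CPEB4 GT/+.

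Rgs5 stood at 9.77 and 9.79 in CPEB4 KO, 9.46 and 9.38 in CPEB4 GT/+ and 9.28 and 9.37 in WT, with a difference of 0.45 between CPEB4 KO and WT (SE 0.092, limma adjusted p = 0.306). Pdgfrb overlapped between CPEB4 KO and WT, at 7.48 and 7.46 in CPEB4 KO, 7.35 and 7.27 in CPEB4 GT/+ and 7.33 and 7.58 in WT. The value of Vtn in CPEB4 KO rests on 1 array: it stood at 10.87 and 9.69 in CPEB4 KO, 9.12 and 9.32 in CPEB4 GT/+ and 9.48 and 9.54 in WT. The difference from WT was 0.77 (SE 0.32, limma adjusted p = 0.449), and 0.18 without the first CPEB4 KO animal. Without the second CPEB4 KO animal it was 1.36, with a limma adjusted p of 0.000617. A second Vtn probe set stood apart on the same array, at 10.45 and 8.95 in CPEB4 KO, 8.15 and 8.51 in CPEB4 GT/+ and 8.52 and 8.74 in WT. The WASH and ELUTED arrays of that animal did not stand apart, at 9.75 and 8.67.

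In CPEB4 GT/+ against WT the vascular genes were evenly placed. Of the 28 genes, 13 lay above 0 (51.8% of all genes), with a median of -0.02. At an unadjusted p under 0.05, 2 were higher (Arhgap29 and Slc16a1) and 1 lower (Myh11), against 1.73% and 1.68% of all genes. The endothelial median was 0.02 and the mural median -0.29, with 4 of 5 mural genes below 0. In CPEB4 KO against CPEB4 GT/+, 23 of 28 lay above 0 (56.2% of all genes), with a median of 0.14. There 8 were higher at an unadjusted p under 0.05 (5.97% of all genes) and 0 lower (2.17%). Both CPEB4 KO animals lay above both CPEB4 GT/+ animals for 15 genes, against 22.8% of all genes. Among them were all 5 mural genes on the probe sets used. These 3 comparisons share their animals, so their values are not independent of each other.

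Markers of other cell types were read beside the vascular genes in INPUT, and none was called between genotypes. Of all genes 57.2% lay above 0 in CPEB4 KO against WT, at a median of 0.03. In CPEB4 KO against WT, 7 of 8 vascular fibroblast and meningeal genes lay above 0 (median 0.28), as did 7 of 9 microglia genes (0.22), 10 of 12 astrocyte genes (0.13) and 10 of 12 neuron genes (0.04). Of 9 oligodendrocyte genes 4 did (-0.05). The summed linear level of the fibroblast and meningeal genes was, in log2, 11.27 and 11.33 in CPEB4 KO, 10.65 and 10.94 in CPEB4 GT/+ and 11.11 and 10.99 in WT. That of the mural genes was 11.73 and 11.28 in CPEB4 KO, 10.75 and 10.82 in CPEB4 GT/+ and 10.87 and 10.98 in WT. Both sums put CPEB4 KO above the other genotypes, but the mural sum of the first CPEB4 KO animal includes its high Vtn value. The sum of the endothelial genes differed less, at 13.89 and 13.87 in CPEB4 KO, 13.79 and 13.85 in CPEB4 GT/+ and 13.82 and 13.84 in WT. Against CPEB4 GT/+, all 8 fibroblast and meningeal genes were above 0 in CPEB4 KO (median 0.52). The sum of the 9 microglia genes was 11.82 and 11.79 in CPEB4 KO, 11.67 and 11.59 in CPEB4 GT/+ and 11.47 and 11.65 in WT. The part of these other cells, or of what was dissected, in the vascular values was not tested.

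The fractions carried the genotype pattern unevenly. On WASH arrays, the CPEB4 KO mean lay above the WT mean for 25 of 28 vascular genes, at a median of 0.11 against 0.03 over all genes. No vascular gene was called there (0.0156% of all genes were higher and 0.0312% lower), while 7 were higher at an unadjusted p under 0.05 and 0 lower (3.95% and 1.88% of all genes). Rhoj stood on WASH arrays at 8.39 and 8.39 in CPEB4 KO, 7.93 and 8.20 in CPEB4 GT/+ and 7.55 and 7.86 in WT, with a difference between CPEB4 KO and WT of 0.69 (SE 0.13, limma adjusted p = 0.249). Acta2 stood at 8.88 and 8.99 in CPEB4 KO, 8.20 and 8.38 in CPEB4 GT/+ and 8.39 and 8.51 in WT. Its CPEB4 KO arrays were above all others in WASH as they were in INPUT, by 0.49 over WT (SE 0.11, limma adjusted p = 0.454). On ELUTED arrays 12 of 28 lay above 0 in CPEB4 KO, at a median of -0.02 against -0.008 over all genes. None was called there (0.0078% of all genes were lower). There 1 gene, Rgs5, was higher at an unadjusted p under 0.05 and 0 lower (1.42% and 4.52% of all genes), by 0.37 (limma adjusted p = 0.837).

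The ELUTED minus WASH difference did not pass the test between genotypes for any vascular gene, or for any gene (0.0% called in each of the 3 comparisons). In CPEB4 KO against WT, 23 of 28 were below 0, at a median of -0.15 against -0.04 over all genes. At an unadjusted p under 0.05, 2 were lower, against 4.84% of all genes, and 0 higher, against 1.33%. These were Ly6c1 and Esam. Ly6c1 differed between fractions by -1.62 and -1.87 in CPEB4 KO, -1.002 and -1.62 in CPEB4 GT/+ and -1.02 and -0.94 in WT. Both CPEB4 KO animals were below both WT animals, and the difference of the differences was -0.77, with no call after adjustment. For Esam the values were -0.41 and -0.92 in CPEB4 KO, -0.32 and -0.46 in CPEB4 GT/+ and -0.22 and 0.02 in WT (a difference of -0.56, not called after adjustment). Both CPEB4 KO animals were below both WT animals for 14 genes, against 31.2% of all genes, and above them for 2, against 20.6%. The vascular genes held 13 above and 15 below 0 in CPEB4 GT/+ against WT (median -0.02), and 6 above and 22 below in CPEB4 KO against CPEB4 GT/+ (median -0.18).

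Genes of the pathways that these receptors and junctions belong to were set beside them. Of all genes 48.5% were lower in ELUTED and 24.9% higher, and the counts of these short lists were not tested against that. Of 8 tight junction partners kept, 5 were lower in ELUTED and 2 higher. Cldn12 (-0.77), the junctional adhesion molecule gene Jam2 (-0.64) and Ocln, which codes for occludin (-0.59), were lower, while Lsr, a protein of tricellular junctions (0.40), and Cgnl1, paracingulin (0.45), were higher. The SE of these 5 was 0.071 to 0.11. Of 8 ligands kept, 5 were higher and 1 lower, with a median of 0.27. Vegfa (0.37, SE 0.082), a ligand of Flt1 and of Kdr, and Vegfb (0.39, SE 0.082), a ligand of Flt1, were higher. Kdr itself was lower on the deposited scale. The adrenomedullin gene Adm (0.27, SE 0.085), a ligand of the receptor that Ramp2 forms, was also higher. The Tek agonist Angpt1 was lower (-0.48, SE 0.083), and Angpt2 was higher (0.32, SE 0.072). Aligning the arrays on the hybridisation controls lowers every difference by the same amount, and the higher values in this paragraph and the next 2 turn below 0, except that of Hspg2.

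TGF-beta family receptors and SMADs were mostly richer in the short-tail fraction, with 8 of 10 lower, 0 higher and a median of -0.44. Tgfbr1, the type I receptor, was at -1.50 (SE 0.15, limma adjusted p = 0.00011), Tgfbr2, the type II receptor, at -0.75 and Acvrl1, the endothelial receptor ALK1, at -0.49. Their co-receptor Eng lay on the other side of the all-gene median. Notch genes were mixed, with 4 of 8 higher (Jag1 0.41, Notch1 0.36, Notch3 0.32, Dll4 0.30) and 3 lower (Hey1 -0.44, Rbpj -0.34, Notch4 -0.24, the last 2 above 0 with centred arrays). Of 6 Wnt and norrin genes, 3 were higher, with the co-receptors Lrp6 at 0.46 and Lrp5 at 0.28, and 2 lower, Ctnnb1 at -0.43 and the norrin receptor gene Fzd4 at -0.20, which turns above 0 with centred arrays. Of 8 basement membrane genes, Lamb1 (-0.97) and Col4a2 (-0.72) were lower, Hspg2, which codes for perlecan, was higher (0.65) and 5 did not pass the test.

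Further endothelial and mural markers outside the 33 genes gave 15 of 26 lower and 4 higher (endothelial) and 5 of 13 lower and 5 higher (mural). The transferrin receptor gene Tfrc (-1.49, SE 0.13), Ctla2a (-1.23, SE 0.11), the efflux pump gene Abcg2 (-1.15, SE 0.13) and Cd34 (-0.97, SE 0.12) were lower. The transcription factor genes Erg and Foxq1 were higher, both at 0.33 on the deposited scale. Among mural markers, the actin-binding genes Cald1 (-0.88) and Tpm2 (-0.70) were lower, and Gja4 (0.37) and Des, which codes for desmin (0.33), were higher on that scale. Other cell types had low values too: against -0.18 over all genes, the median was -0.78 over 9 microglia genes, -0.46 over 8 fibroblast and meningeal genes, -0.45 over 12 astrocyte genes, -0.33 over 9 oligodendrocyte genes and 0.04 over 12 neuron genes. No test between these lists was made.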

How the data were processed

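Total RNA (INPUT) and the WASH and ELUTED poly(U) fractions of 6 mice were measured on 18 arrays. Amplification started from 5 ng and ran 21 cycles before biotin labelling, per the labels' protocols. The deposited values are log2 and were made by the authors with RMA (named without a version in the submitters' processing notes). RMA normalizes arrays to each other, so total amounts were not measured and every difference is relative to other genes. The labels call the arrays PrimeView, but the PM mark in the probe set names belongs to a different mouse array. Genes were named through GEO's platform annotation, which can be old.

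Of 45141 probe sets, 28898 carried 1 gene symbol, 551 several and 15692 none. Each gene was read by its probe set of highest mean over all arrays. The lowest 25% of genes were left out (filter 5.52; the highest of 23 nonspecific controls had a mean of 5.61). Groups came from the labels. ELUTED minus WASH was taken within each animal. Genotype means were fitted over the 6 animals with limma 3.58.1 (lmFit, contrasts.fit, eBayes) in R 4.3.3, with 3 residual degrees of freedom, two-sided tests and Benjamini-Hochberg adjustment over 12822 genes. Calls used an adjusted p under 0.05. Precision is limited by the number of arrays. The scripts were tested on simulated data, and tables and plots were made with pandas 2.3.3 and matplotlib 3.10.9 in Python 3.11.15.

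The vascular genes and the other lists were chosen with earlier results of these data known, so their directions are not independent evidence. Genes were named by a fixed rule: all 33 vascular genes, Cpeb4, and from each other list at most 2 called genes of largest difference in each direction. Ocln, Adm, Angpt2, Acvrl1, Notch3, Notch4, Dll4, Abcg2, Cd34, Klf2, Klf4 and Apold1 were named after their values were seen. Alternatives changed the alignment of the arrays, the filter, the probe set rule, the variance model, the fractions compared and the animals included. No batch was given in the labels, and no genome or sequence was used.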

Additional observations from a re-analysis of the deposited data

Results flagged for a closer look

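In 28 vascular genes, the 6 per-animal ELUTED minus WASH values were searched for 1 animal far from the others by Dixon's criterion. It marked 3 genes, and chance marks about 5 percent of groups. For Cdh5, the first WT animal stood at 0.149, while the other 5 lay between -0.204 and -0.110 (gap over range 0.732). For Eng, the second CPEB4 GT/+ animal stood at 0.543, while the others lay between 0.0702 and 0.233 (0.656). For Slc16a1, the second CPEB4 GT/+ animal stood at -1.84, while the others lay between -1.32 and -1.02 (0.643).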

How the results depend on the processing

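Of the 22 genes called in ELUTED minus WASH, 6 kept direction and call under every alternative run (Arhgap29, Bsg, Egfl7, Ly6c1, Slc16a1 and Slco1a4). Of 823 single-gene values under alternatives, 735 stayed called or uncalled as before, 36 lost the call and 29 gained it. Another 23 changed sign and were called before or after the change. Values uncalled in both could change sign and still count among the 735. Over all comparisons, 199 of 2567 such uncalled values had the other sign. Of the 3 higher and 19 lower genes, centred arrays gave 8 and 11, the hybridisation controls 0 higher, quantile normalization 5 higher, and ELUTED minus INPUT 5 and 7. Sign changes are listed here only for values called in the first test or in the alternative. Uncalled values turned too, such as Rgs5 with centred arrays and Cdh5, Pltp and Pdgfrb with ELUTED minus INPUT. Among the called values, signs turned with centred arrays for Pecam1 (0.10), Cdh5 (0.26), Kdr (0.0672), Abcb1a (0.24), Mfsd2a (0.17), Pltp (0.24), Vwf (0.10), Pdgfrb (0.33) and Myh11 (0.13). They turned with the hybridisation controls for Eng (-0.28), Ramp2 (-0.0503) and Slc2a1 (-0.46), with quantile normalization for Pltp (0.17), and over the mean of probe sets for Myh11 (0.0886). With ELUTED minus INPUT they turned for Cldn5 (0.0336), Pecam1 (0.16), Abcb1a (0.26), Mfsd2a (0.0838), Vwf (0.17), Rhoj (0.24), Rgs5 (0.35) and Myh11 (0.16), and with INPUT minus WASH for Eng (-0.00826). The endothelial minus mural gap of -0.16 was -0.30 over the mean of probe sets, which let Kcnj8 pass the filter, -0.342 over the same 28 genes (a setting chosen after seeing the data) and 0.0401 with INPUT minus WASH. In INPUT, CPEB4 KO against WT gave 4 higher genes in place of 0 with the hybridisation controls, which moved the all-gene median by construction from 0.03 to 0.16, and 3 without the second CPEB4 KO animal (Rhoj, Arhgap29 and Vtn). Its gap of -0.30 was 0.0106 over the mean of probe sets with Kcnj8, -0.107 over the same 28 genes and -0.0033 over the mean of the 3 fractions. CPEB4 KO against CPEB4 GT/+ gave 3 higher genes with the hybridisation controls and 1, Vtn, without the second CPEB4 KO animal, and its gap of -0.36 was -0.0346 over the mean of WASH and ELUTED. Beyond the alignments, the cause was not tested. Leaving out 1 animal at a time, with the lone animal of a genotype assumed to vary like the others, gave 2 to 3 higher and 16 to 19 lower genes in ELUTED minus WASH (gap -0.18 to -0.058). In INPUT it gave 0 to 3 higher genes and a gap of -0.30 to -0.13 for CPEB4 KO against WT, 0 and 0.16 to 0.40 for CPEB4 GT/+ against WT, and 0 to 1 and -0.44 to -0.23 for CPEB4 KO against CPEB4 GT/+; all other counts stayed at 0. Deviations of animals with the same number correlated at -0.08, -0.01 and -0.04 in INPUT and at -0.28, -0.33 and, between CPEB4 KO and CPEB4 GT/+, 0.51 in ELUTED minus WASH. As not all were over 0.1, the numbers were not taken to pair animals. With replicate number as a block the genotype counts of vascular genes stayed at 0. With no replicate block for the animal in ELUTED against WASH, 3364 genes were higher and 6301 lower over all genes, and Rgs5 gained a call (adjusted p = 0.0402). Where signal was low it limits what can be read: 5 other probe sets of the vascular genes had a mean below the filter.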

Other observations

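Of 26 endothelial markers outside the 33 genes, 18 lay above 0 in INPUT in CPEB4 KO against WT and 8 below, at a median of 0.07, and none was called. Apold1, Klf2 and Klf4, 3 of those below 0, were picked after their values were seen. Apold1, an early response gene of endothelium, stood in INPUT at 7.69 and 7.93 in CPEB4 KO, 9.05 and 9.02 in CPEB4 GT/+ and 9.35 and 9.07 in WT. Both CPEB4 KO animals lay below all others, and so they did on WASH arrays (7.84 and 8.32 in CPEB4 KO, 9.45 and 9.18 in CPEB4 GT/+, 9.68 and 9.51 in WT) and on ELUTED arrays (7.22 and 7.19 in CPEB4 KO, 9.10 and 8.82 in CPEB4 GT/+, 9.15 and 9.12 in WT). In INPUT the difference between CPEB4 KO and WT was -1.40 (SE 0.13, limma adjusted p = 0.0523), just short of the threshold. It passed the test on WASH arrays, at -1.52 (SE 0.16, limma adjusted p = 0.00837), and on ELUTED arrays, at -1.92 (SE 0.15, limma adjusted p = 0.0265). The flow-responsive transcription factor gene Klf2 stood in INPUT at 6.64 and 6.41 in CPEB4 KO, 6.89 and 6.81 in CPEB4 GT/+ and 7.12 and 7.35 in WT. Its genotypes did not overlap, and the difference between CPEB4 KO and WT was -0.71 (SE 0.12, limma adjusted p = 0.253), which did not pass the test. On WASH arrays Klf2 passed, at -0.90 (SE 0.11, limma adjusted p = 0.0146), and on ELUTED arrays it did not (-0.26, limma adjusted p = 0.907). Klf4, a related factor, stood at 6.66 and 6.72 in CPEB4 KO, 6.97 and 7.25 in CPEB4 GT/+ and 7.11 and 7.18 in WT (-0.45, SE 0.12, limma adjusted p = 0.385), and it passed on neither WASH (-0.83, limma adjusted p = 0.186) nor ELUTED arrays (-0.80, limma adjusted p = 0.837).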
